A study of Saccharomyces cerevisiae with 11 samples.

Results

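The genes described here are the 41 genes of Saccharomyces cerevisiae that encode the subunits of the 26S proteasome, its assembly chaperones, the associated proteins Blm10 and Ecm29, and the transcription factor Rpn4. They were chosen by gene symbol and not by their measured values, and all 41 were found among the 5449 yeast genes measured, each by a single probe set. The study hybridised RNA of 11 budding yeast samples to Affymetrix arrays, 4 carrying a plasmid for human CFTR and 7 carrying an empty vector. CFTR is the chloride channel that is mutated in cystic fibrosis, and its plasmid (pRS426PPGK-CFTR-3HA) carries, by its name, the PGK promoter and an HA epitope tag. The control plasmid, pRSGPD426, carries the GPD promoter instead, so the groups differ by promoter as well as by the CFTR gene. The yeast strain is not named in the labels, every culture was grown in selective medium at 26 degrees until mid log phase, and the vector arrays are marked as re-analysed. Values are log2 of the deposited intensity, in which 0 is the mean of all probe sets on an array, and each is relative to the other RNA of that array.

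The proteasome is the protease that degrades proteins tagged with ubiquitin. Its 20S core is a barrel of alpha and beta rings with the cutting sites inside the beta rings, and its 19S cap has a base of ATPases that unfold substrates and a lid that removes their ubiquitin. In yeast, Rpn4 activates the proteasome genes through a shared promoter element and is itself a short-lived substrate of the proteasome, which closes a feedback loop. Misfolded CFTR made in yeast is retained in the endoplasmic reticulum and is degraded by the proteasome, and the comparison asks which yeast genes differ in expression when the channel is made.

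The 11 arrays did not separate by plasmid alone. The titles carry sample codes, which run from 3 to 5 in vector replicates 1 to 3, from 7 to 10 in the CFTR arrays and from 11 to 14 in vector replicates 4 to 7. What the codes stand for is not stated, and code range and CFTR cannot be told apart. Vector replicate 3 differed from the CFTR arrays by an SD of 0.163 to 0.278 across genes, and from the other vector arrays by 0.379 to 0.515, so over all genes it stood with the group it is not labelled as. It was farthest from vector replicates 1 and 2, of its own code range, at 0.504 and 0.515. Codes 3 to 5 were therefore not a group of like arrays. Vector replicates 1 and 2 differed from each other by an SD of 0.111 and replicates 5 to 7 by 0.0975 to 0.130, less than the 0.153 to 0.292 within the CFTR group. Vector replicates 1 and 2 also had another distribution of intensities, with their median gene at 0.05 and 0.10 against -0.32 to -0.24 on the other 9 arrays. The labels do not tie arrays to cultures, so the p-values rest on differences from array to array that may be technical in part, and the number of arrays limits the precision. All 41 proteasome genes lay above the background level of -1.17, with mean levels from -0.83 to 2.28.

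Over all 11 arrays, the proteasome genes were mostly higher with CFTR, by small amounts. Their median log2 difference, CFTR minus vector, was 0.17, against -0.04 over all genes tested, and 33 of the 41 were above 0. The 26S subunits had similar medians in each subcomplex, at 0.22 in the alpha ring, 0.20 in the beta ring, 0.20 in the base and 0.15 in the lid, whereas the assembly chaperones had a median of -0.05. One member passed the threshold of an adjusted p under 0.05 (limma, adjusted over all genes): PRE6 rose, and 0 members fell. That is 2.44% of the members, beside 0.496% of all genes called higher and 0.422% called lower. At an unadjusted p under 0.05, 19 members were higher, beside 7.3% of all genes, and 0 were lower, beside 10.8% of all genes. In 11 members every CFTR array lay above every vector array, beside 2.4% of all genes, and in 0 members every CFTR array lay below, beside 3.34% of all genes. The 11 were PRE6, PUP3, PRE1, PRE2, RPT5, RPN2, RPN10, RPN13, RPN6, SEM1 and ECM29.

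This count rested on single arrays. Without vector replicate 3, which stood with the CFTR arrays, 6 members rose (PRE6, PRE1, PRE2, RPN13, SEM1 and RPN4) and 0 fell, where 4.04% of all genes were called higher and 5.52% lower. Without any one of the other 10 arrays, 0 members passed, and the adjusted p of PRE6 ran from 0.061 to 0.18. Counting vector replicates 1 and 2 as a single sample and replicates 5 and 7 as another also left 0 members past the threshold.

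**Figure D1:**
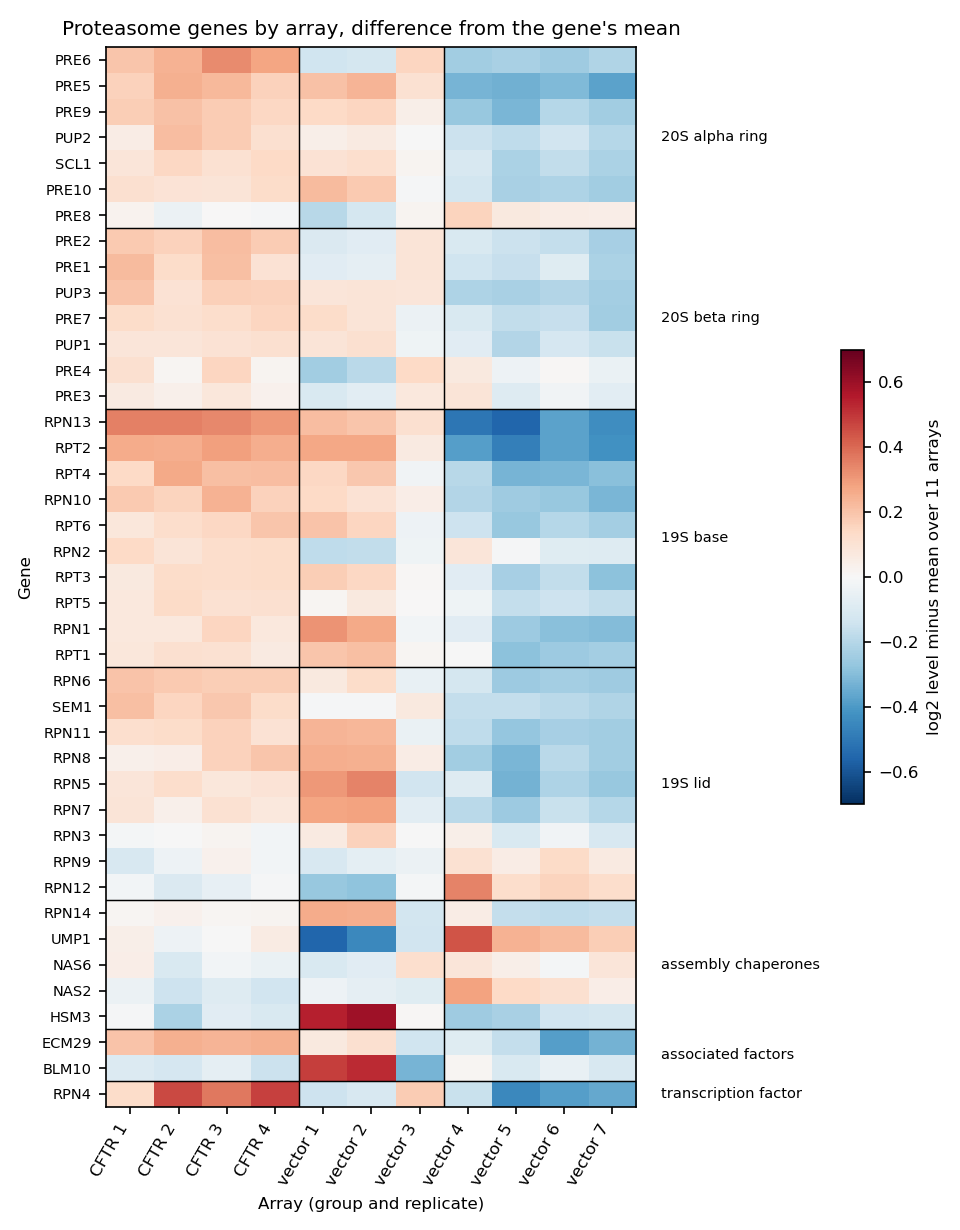
Level of each of the 41 proteasome genes on each of the 11 arrays, as the log2 difference from that gene's mean over all arrays, with genes in rows ordered by subcomplex and arrays in columns by group. The CFTR columns are mostly above the gene means and vector replicates 4 to 7 mostly below, while vector replicates 1 to 3 lie between or above for most subunits of the core, base and lid.

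RPN4 (YDL020C), the transcription factor, had the largest difference of the 41 genes over all 11 arrays. Its level was 0.79, 1.12, 1.03 and 1.14 in CFTR replicates 1 to 4, 0.52, 0.55 and 0.84 in vector replicates 1 to 3, and 0.50, 0.21, 0.28 and 0.30 in vector replicates 4 to 7. CFTR replicate 1 was the lowest of its group and lay just under vector replicate 3, so the groups overlapped by that pair of arrays alone. The means were 1.02 ± 0.16 (SD, n = 4) and 0.46 ± 0.21 (SD, n = 7), a log2 difference of 0.56 (SE 0.12) that missed the threshold (limma, adjusted p = 0.054). Without vector replicate 3, the highest vector array of RPN4, the difference was 0.63 and passed it (adjusted p = 0.0054). Without any one of the other 10 arrays RPN4 missed the threshold (adjusted p from 0.071 to 0.23).

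Among the alpha subunits, which form the outer rings of the core and its gate, PRE6 (YOL038W) rose. Its level was 2.26, 2.31, 2.40 and 2.35 in CFTR replicates 1 to 4, 1.93, 1.95 and 2.22 in vector replicates 1 to 3, and 1.83, 1.84, 1.82 and 1.86 in vector replicates 4 to 7. Every CFTR array lay above every vector array, and vector replicate 3 was the nearest to them. The means of 2.33 ± 0.06 (SD, n = 4) and 1.92 ± 0.14 (SD, n = 7) differed by 0.41 (SE 0.08), or 1.33-fold (adjusted p = 0.040). PRE8, another alpha subunit, had the smallest difference of its ring. It was at 2.31, 2.24, 2.28 and 2.27 with CFTR, at 2.08, 2.16 and 2.30 in vector replicates 1 to 3, and at 2.44, 2.35, 2.33 and 2.33 in replicates 4 to 7. The CFTR arrays of PRE8 lay above vector replicates 1 and 2 and below replicates 4 to 7, with vector replicate 3 among them. The difference over all arrays was -0.01 (SE 0.07, limma, adjusted p = 0.97), with a sign that turned to 0.07 when each array was centred on its median gene. PRE5, PRE9 and PUP2, also alpha subunits, differed by 0.31, 0.27 and 0.22, none past the threshold. In PRE5, as deposited, the vector replicates 1 to 3 were as high as the CFTR arrays, with means of 1.71 ± 0.07 (SD, n = 3) and 1.73 ± 0.05 (SD, n = 4), and replicates 4 to 7 were at 1.19 ± 0.03 (SD, n = 4). Relative to the median gene of each array, vector replicates 1 and 2 of PRE5 lay below the CFTR arrays.

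Of the beta subunits, PRE2 carries the chymotrypsin-like site of the core, PUP1 the trypsin-like site and PRE3 the caspase-like site. PRE2 had the largest difference of the beta ring. Its level was 2.28, 2.25, 2.31 and 2.27 with CFTR, 1.99, 2.02 and 2.19 in vector replicates 1 to 3, and 1.99, 1.95, 1.93 and 1.86 in replicates 4 to 7. The CFTR arrays lay close together above all vector arrays, and the difference of 0.29 (SE 0.07) missed the threshold (adjusted p = 0.059). PRE3 had the smallest difference of the ring, at 2.24, 2.22, 2.26 and 2.21 with CFTR against 2.08, 2.11 and 2.26 in vector replicates 1 to 3 and 2.27, 2.09, 2.16 and 2.11 in replicates 4 to 7. Its groups overlapped, with a difference of 0.08 (SE 0.06, adjusted p = 0.51). PUP1 differed by 0.15 (adjusted p = 0.31), so that of the 3 subunits with a cutting site PRE2 stood apart in size, and none passed. PRE1 and PUP3, subunits without a cutting site, differed by 0.26 and 0.25 without overlap of the groups.

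In the base, all 10 genes had a difference above 0, and 4 of them (RPT5, RPN2, RPN10 and RPN13) did not overlap between the groups. RPN13 (YLR421C), a receptor that binds ubiquitin chains, had the largest difference. It was at 1.48, 1.48, 1.46 and 1.43 with CFTR, at 1.34, 1.32 and 1.24 in vector replicates 1 to 3, and at 0.62, 0.57, 0.75 and 0.69 in replicates 4 to 7. The vector arrays thus split by code range, with replicates 4 to 7 far below the rest, and the difference over all arrays was 0.53 (SE 0.16, adjusted p = 0.13). RPT2, the ATPase that helps to open the gate of the core, had the same split, with means of 1.30 ± 0.01 (SD, n = 4) with CFTR, 1.24 ± 0.12 (SD, n = 3) in vector replicates 1 to 3 and 0.62 ± 0.05 (SD, n = 4) in replicates 4 to 7. RPN10, also a ubiquitin receptor, was at 1.13 ± 0.04, 1.04 ± 0.05 and 0.68 ± 0.05 in the same order. RPT1, also an ATPase, had the smallest difference of the base, at 1.93, 1.97, 1.96 and 1.92 with CFTR, 2.05, 2.07 and 1.87 in vector replicates 1 to 3, and 1.86, 1.57, 1.60 and 1.62 in replicates 4 to 7. As deposited, vector replicates 1 and 2 lay above all CFTR arrays of RPT1, and the difference was 0.14 (SE 0.11, adjusted p = 0.51). Relative to the median gene of each array, vector replicates 1 and 2 lay below all CFTR arrays of RPT1.

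In the lid, 6 of 9 genes had a difference above 0. Of the 3 below it, RPN3 and RPN9 turned sign under median centring. RPN6, which clamps the lid to the base and the core, had its largest difference. Its level was 1.70, 1.68, 1.67 and 1.67 with CFTR, 1.56, 1.63 and 1.45 in vector replicates 1 to 3, and 1.37, 1.24, 1.26 and 1.25 in replicates 4 to 7. The CFTR arrays lay above the vector arrays without overlap, by 0.29 (SE 0.09, adjusted p = 0.12). RPN12, whose incorporation completes the lid, had the lowest difference, at 1.45, 1.37, 1.41 and 1.46 with CFTR, 1.20, 1.19 and 1.45 in vector replicates 1 to 3, and 1.81, 1.59, 1.63 and 1.59 in replicates 4 to 7. Vector replicates 4 to 7 were the highest arrays of RPN12 and replicates 1 and 2 the lowest, and the difference over all arrays was -0.07 (SE 0.11, adjusted p = 0.77). RPN11, the deubiquitinase of the lid, differed by 0.20 (adjusted p = 0.37), and SEM1, its smallest subunit, by 0.27 (adjusted p = 0.099).

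The 5 assembly chaperones had differences from -0.16 to 0.03 over all arrays, with none past the threshold and none free of overlap. RPN14, a chaperone of the base, was at -0.55, -0.53, -0.55 and -0.55 with CFTR, at -0.31, -0.31 and -0.70 in vector replicates 1 to 3, and at -0.51, -0.73, -0.75 and -0.73 in replicates 4 to 7. HSM3, which binds the base ATPase Rpt1 during assembly, was at -0.84, -1.05, -0.90 and -0.93 with CFTR, at -0.28, -0.24 and -0.82 in vector replicates 1 to 3, and at -1.08, -1.05, -0.96 and -0.95 in replicates 4 to 7. As deposited, vector replicates 1 and 2 stood above every other array in both genes. Relative to the median gene of each array, that held for HSM3, whereas RPN14 in vector replicates 1 and 2 lay below the CFTR arrays. The differences over all arrays, as deposited, were 0.03 (SE 0.11, adjusted p = 0.91) for RPN14 and -0.16 (SE 0.17, adjusted p = 0.66) for HSM3. UMP1, the chaperone that is enclosed in the maturing core and is its first substrate, was at 1.16 ± 0.04 (SD, n = 4) with CFTR, 0.77 ± 0.22 (SD, n = 3) in vector replicates 1 to 3 and 1.42 ± 0.12 (SD, n = 4) in replicates 4 to 7. Its CFTR arrays lay between the vector code ranges, and the difference over all arrays was 0.02 (SE 0.18). Nearly the reverse of RPN13 and RPT2, UMP1 had its highest vector values in replicates 4 to 7.

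ECM29, which holds core and cap together, was at -0.47, -0.42, -0.43 and -0.42 with CFTR, at -0.60, -0.56 and -0.81 in vector replicates 1 to 3, and at -0.75, -0.84, -1.05 and -0.998 in replicates 4 to 7. Its groups did not overlap, with a difference of 0.36 (SE 0.11) that missed the threshold (adjusted p = 0.11). BLM10, an activator that caps the core in place of the 19S cap, was at 0.33, 0.30, 0.36 and 0.27 with CFTR, 0.91, 0.94 and 0.10 in vector replicates 1 to 3, and 0.44, 0.32, 0.38 and 0.31 in replicates 4 to 7. Vector replicates 1 and 2 were the highest arrays of BLM10 and vector replicate 3 the lowest, and the difference was -0.17 (SE 0.15, adjusted p = 0.59).

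**Figure D2:**
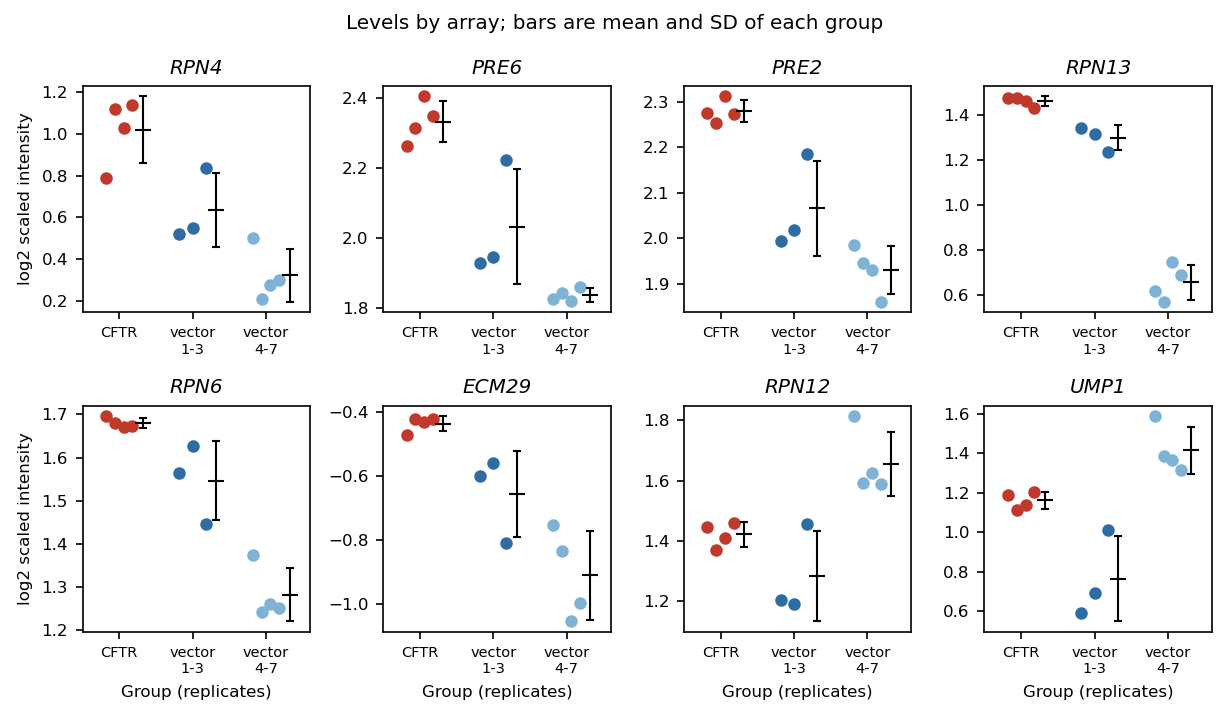
Log2 scaled intensity of 8 proteasome genes on each array (points), with the mean and SD of each group (dash and bar beside the points), for the CFTR arrays, vector replicates 1 to 3 and vector replicates 4 to 7. RPN4, PRE6 and PRE2 are highest with CFTR, RPN13 is low in vector replicates 4 to 7 alone, and RPN12 and UMP1 are highest in those replicates.

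Because the vector arrays differed by code range, CFTR was compared with each range in a model of 3 groups over all arrays. Vector replicates 1 to 3 are a mixed range, in which replicate 3 was closer to the CFTR arrays than to replicates 1 and 2 over all genes. These comparisons share the CFTR arrays, and their values are given side by side. Against vector replicates 4 to 7, 28 members rose and 2 fell. The 28 are 68.3% of the members, beside 13.8% of all genes called higher, and the 2, RPN12 and NAS2, are 4.88%, beside 8.99% called lower. The median difference was 0.31, against 0.04 over all genes. Against vector replicates 1 to 3, 0 members passed in either direction, beside 0.312% of all genes called higher and 0.44% called lower. At an unadjusted p under 0.05 (limma), 9 members were higher, beside 10.3% of all genes, and 1 was lower, beside 31.4%. The median was 0.06, against -0.15 over all genes. Relative to the median of all genes, the members' median was therefore 0.27 higher against replicates 4 to 7 and 0.21 higher against replicates 1 to 3 as deposited, and 0.25 and 0.13 higher under quantile normalization.

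By subcomplex, the rises against vector replicates 4 to 7 covered 6 of 7 alpha subunits, 5 of 7 beta subunits, 9 of 10 base subunits and 6 of 9 lid subunits, with RPN4 and ECM29 besides, and 0 of 5 assembly chaperones. RPN13 had the largest, at 0.80 (SE 0.06, 1.75-fold, adjusted p = 2.3e-05), followed by RPN4 at 0.70 (SE 0.10, 1.62-fold, adjusted p = 0.0013) and RPT2 at 0.68 (SE 0.06, 1.60-fold, adjusted p = 7.2e-05). Against vector replicates 1 to 3 the same genes differed by 0.16, 0.39 and 0.06, with adjusted p of 0.089, 0.066 and 0.49. PRE6 differed by 0.49 against replicates 4 to 7 (adjusted p = 0.0010) and by 0.30 against replicates 1 to 3 (adjusted p = 0.064), and PRE2 by 0.35 (adjusted p = 0.0022) and 0.21 (adjusted p = 0.066). As deposited, the alpha subunits other than PRE6 and PRE8, and the ATPases of the base, thus had larger differences against replicates 4 to 7. Against replicates 1 to 3 they had at most 0.11, whereas PRE6, PRE2, RPN4 and ECM29 had more than 0.2 against both. That contrast depended on the scaling. Under median centring the members' median was 0.28 against replicates 1 to 3, in place of 0.06, and 0.28 against replicates 4 to 7. Of the assembly factors, as deposited, UMP1 differed by 0.40 from replicates 1 to 3 (limma, adjusted p = 0.064) and by -0.25 from replicates 4 to 7 (adjusted p = 0.071). HSM3 had the largest difference of the members from replicates 1 to 3 on that scale, at -0.48 (adjusted p = 0.064). It differed by 0.08 from replicates 4 to 7 (adjusted p = 0.67). NAS2, a chaperone of the base, fell by 0.25 against replicates 4 to 7 (adjusted p = 0.026).

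These counts also depended on which arrays were counted as separate samples. With vector replicates 1 and 2 averaged and replicates 5 to 7 averaged, 9 members rose and 0 fell against replicates 4 to 7, where 2.51% of all genes were called higher and 1.71% lower. Without vector replicate 3, 11 members rose and 6 fell against replicates 1 and 2, the nearly alike pair, where 15.9% of all genes were called higher and 50.7% lower.

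**Figure D3:**
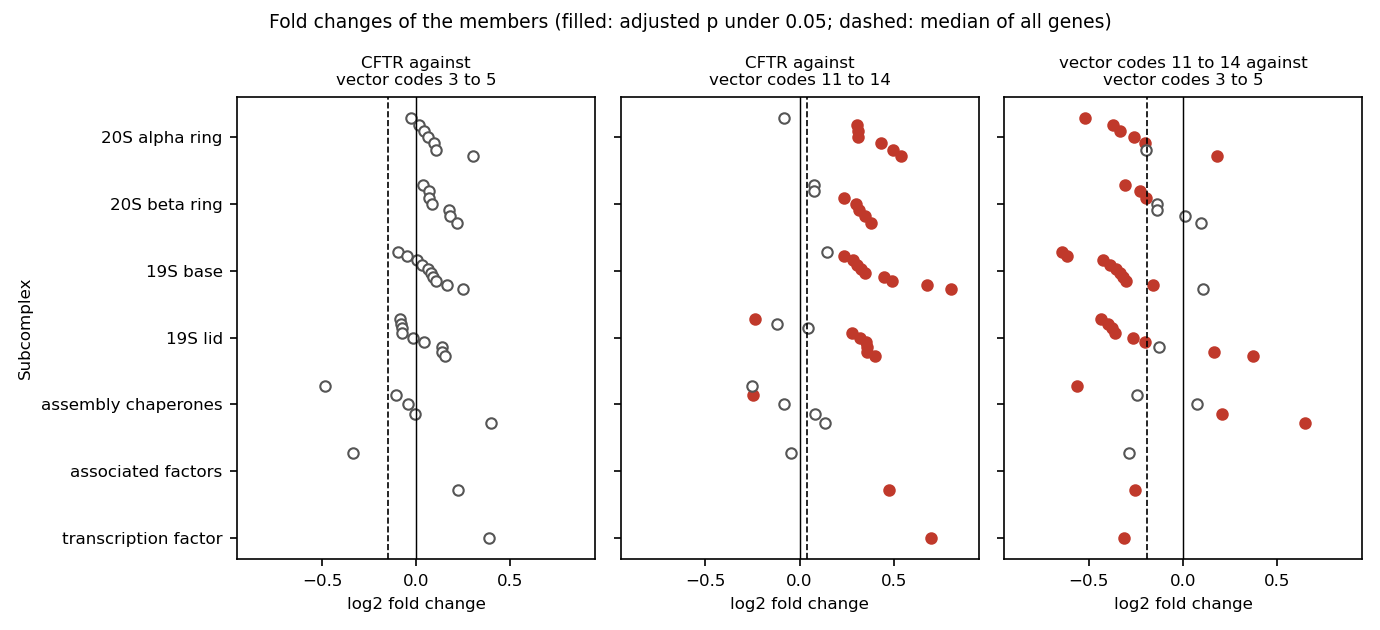
Log2 difference of each proteasome gene (points) by subcomplex in 3 comparisons, CFTR against vector codes 3 to 5 (replicates 1 to 3), CFTR against codes 11 to 14 (replicates 4 to 7) and codes 11 to 14 against codes 3 to 5, with filled points past an adjusted p of 0.05, a solid line at 0 and a dashed line at the median of all genes. Filled points on the right gather in the core, base and lid of the comparison with codes 11 to 14, and the mostly lower values between the vector code ranges are as deposited, where median centring turns 10 of the 41 signs.

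The vector code ranges were also compared with each other. In replicates 4 to 7 against replicates 1 to 3, 5 members were called higher (PRE8, RPN9, RPN12, UMP1 and NAS2), or 12.2%, beside 11.3% of all genes, and 26 were called lower, or 63.4%, beside 36.2% of all genes. The arrays did not overlap in 5 members that were higher, beside 10.8% of all genes, and in 27 that were lower, beside 27.8%. The median difference was -0.26, against -0.19 over all genes, so that relative to all genes it was -0.07. With each array centred on its median gene, the members' median was -0.02, 10 members turned sign (5 of them called as deposited), and 6 were called higher and 4 lower. Those are 14.6% and 9.76% of the members, beside 22.4% and 17.1% of all genes under that centring. Under quantile normalization 5 were higher and 20 lower, or 12.2% and 48.8%, beside 16.6% and 23.3% of all genes. The median there was -0.16, against -0.04 over all genes. The share of members called lower was thus above that of all genes as deposited and under quantile normalization, and below it under median centring. As deposited, the extremes were RPN13, with a difference of -0.64 (SE 0.06, adjusted p = 0.00017), and UMP1, at 0.65 (SE 0.10, adjusted p = 0.0015).

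The mean log2 level over the 41 genes showed the same dependence on scaling. As deposited it was 1.42, 1.42, 1.45 and 1.43 with CFTR, 1.39, 1.41 and 1.32 in vector replicates 1 to 3, and 1.24, 1.13, 1.17 and 1.13 in replicates 4 to 7. On that scale vector replicates 1 and 2 lay next to the CFTR arrays. Relative to the median gene of each array, the mean was 1.67, 1.66, 1.71 and 1.73 with CFTR, 1.34, 1.31 and 1.63 in vector replicates 1 to 3, and 1.52, 1.44, 1.45 and 1.45 in replicates 4 to 7. There vector replicate 3 lay next to the CFTR arrays and replicates 1 and 2 were the lowest. After quantile normalization the CFTR arrays ran from 1.41 to 1.47 and the vector arrays from 1.18 to 1.34. The CFTR arrays were above the vector arrays on all 3 scales, with vector replicate 2 the nearest as deposited and vector replicate 3 the nearest on the other scales. Scaling also moved the all-gene median against vector replicates 1 to 3, and the members' median there was 0.12 under quantile normalization and 0.28 under median centring, against 0.06 as deposited.

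**Figure D4:**
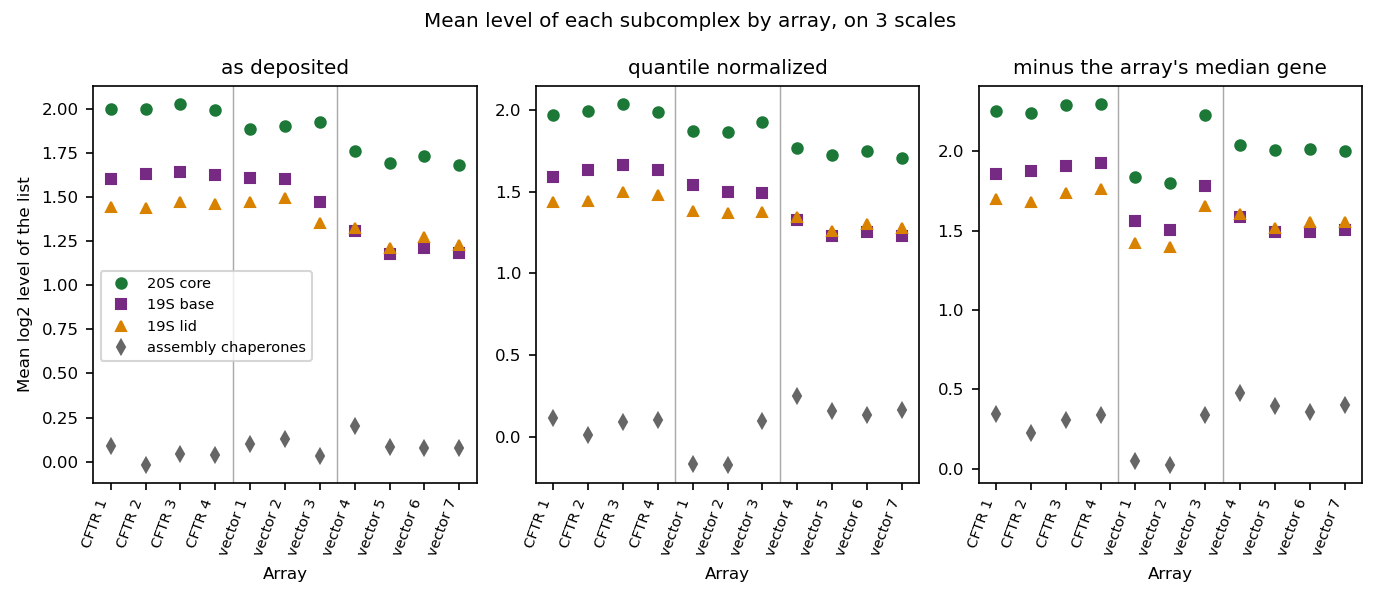
Mean log2 level of the genes of the 20S core, 19S base, 19S lid and assembly chaperones (symbols) on each of the 11 arrays, in 3 panels for values as deposited, quantile normalized and relative to the median gene of the array. The lists differ in height because their genes do, and only the course along the arrays is comparable. Vector replicates 1 and 2 are close to the CFTR arrays in the base and lid as deposited and are the lowest arrays of the core after centring, where vector replicate 3 is closest to CFTR.

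Among 23 other genes of the pathway, 3 rose and 0 fell over all 11 arrays, or 13.04%, beside the 0.496% and 0.422% of all genes. UBA1, the enzyme that activates ubiquitin for all later steps, was at 2.65, 2.59, 2.61 and 2.62 with CFTR, at 1.51, 1.63 and 1.81 in vector replicates 1 to 3, and at 1.62, 1.37, 1.34 and 1.39 in replicates 4 to 7. Its groups lay far apart, with a difference of 1.09 (SE 0.09, adjusted p = 0.00024), and it differed by 0.97 from replicates 1 to 3 (adjusted p = 0.0011) and by 1.19 from replicates 4 to 7 (adjusted p = 1.2e-05). CUZ1, a zinc finger protein that binds the proteasome and Cdc48, rose by 0.59 (SE 0.08, adjusted p = 0.012), from 0.39 ± 0.08 (SD, n = 7) to 0.97 ± 0.13 (SD, n = 4). MAG1, a DNA repair glycosylase whose promoter carries the Rpn4 element in yeast, rose by 0.63 (SE 0.11, adjusted p = 0.026), from -1.22 ± 0.19 to -0.59 ± 0.05. The vector arrays of MAG1 ran from -1.42 to -0.91, around the background level of -1.17, so the size of its rise is uncertain. All 3 also passed against vector replicates 1 to 3, where no proteasome gene did, MAG1 narrowly (limma, adjusted p = 0.0496). The CFTR arrays of each lay above all vector arrays.

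The mRNAs of the 4 transcription factors examined that are known to act on RPN4 were not higher with CFTR over all 11 arrays. HSF1, the heat shock factor, differed by -0.16 (adjusted p = 0.42), and PDR3, a regulator of drug efflux, by -0.14 (adjusted p = 0.75). PDR3 was at -0.83 and -0.73 in vector replicates 1 and 2 and between -1.67 and -1.40 on the other 9 arrays. Those 9 arrays, with all CFTR arrays among them, lay below the background level of -1.17, so PDR3 cannot show whether that factor differed. Of the 4 factors, 2 were above 0 and 2 below it against vector replicates 4 to 7, with none past the threshold. Against vector replicates 4 to 7, 9 of the 23 pathway genes rose and 0 fell, or 39.1%, beside 13.8% of all genes higher and 8.99% lower. Between the vector code ranges, 9 were lower in replicates 4 to 7 and 0 were higher, and their 39.1% lay near the 36.2% of all genes called lower, with 11.3% called higher.

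URA3, the marker by which plasmids of the pRS426 type are selected, also moved with the code ranges as deposited. It was at 3.51, 3.57, 3.70 and 3.57 with CFTR, at 3.51, 3.37 and 3.92 in vector replicates 1 to 3, and at 2.79, 3.10, 3.07 and 3.05 in replicates 4 to 7. Like 28 of the proteasome genes, URA3 was higher with CFTR than in vector replicates 4 to 7, by 0.59 (SE 0.11, adjusted p = 0.0044), and it differed by -0.01 from replicates 1 to 3 (adjusted p = 0.94). Relative to the median gene of each array, URA3 in vector replicates 1 and 2 lay below all CFTR arrays, and in vector replicate 3 above them. The part of the plasmid marker in the proteasome values was not tested.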

How the data were processed

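Per the labels' protocols, RNA was isolated with hot phenol and labelled by 3' in vitro transcription for Affymetrix arrays. The authors deposited intensities on a linear scale, 1 per probe set and array, and every array averages 1 over its 10715 probe sets. What software and background correction they used is not given in the sources used here. Such scaling hides any change in total RNA. Of the probe sets, 5498 matched 1 yeast gene through the platform annotation and the R64 gene table, 1746 named a gene outside it, 1 named several and 3470 had no name. For 47 genes with several probe sets the brightest was kept, which left 5449 genes.

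Log2 values were fitted in R 4.3.3 with limma 3.58.1 (intensity trend, Benjamini-Hochberg adjustment over all genes, threshold 0.05), for CFTR against all vector arrays and in a model of 3 groups by code range. The proteasome genes and the other gene lists were chosen with earlier results of these data known. Values in every array are given for RPN4, for members past the threshold in the first comparison and for the members with the largest and smallest difference of each subcomplex. Up to 3 more per subcomplex are named by group means. Members named besides, for a count, for contrasts between code ranges or in the comparisons by range, were chosen after their values were seen. Of the other pathway genes, those past the threshold are named, with UBA1, HSF1, PDR3 and URA3. CFTR replicate numbers follow the order of deposition and pair nothing. Background is the 95th percentile of unmatched probe sets, -1.17. The fit was tested on simulated data. Alternatives were quantile normalization, median centring, averaging the probe sets of a gene, near-alike arrays averaged, no intensity trend, dim genes left out, fewer arrays in the model and leaving out each array. Python 3.11.15 and matplotlib 3.10.9 made the figures.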

Additional observations from a re-analysis of the deposited data

Results flagged for a closer look

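In 5 cases, a single array of a proteasome gene stood apart from its group by a gap that was large relative to the group's range. The 94 gene and group combinations examined for such gaps also cover CUZ1, MAG1, UBA1, HSF1, PDR3 and URA3. Chance alone gives about 1 in 20, and 5 of 94 lies near that share. PRE6 in vector replicate 3 was at 2.22, with the other 6 vector arrays at 1.82 to 1.95. RPN1, a scaffold subunit of the base, was at 1.93 in CFTR replicate 3, with the others at 1.84 to 1.85. RPT3, an ATPase of the base, was at 1.60 in CFTR replicate 1, with the others at 1.65 to 1.66. RPT2 was at 1.32 in CFTR replicate 3, with the others at 1.29. RPN14 was at -0.53 in CFTR replicate 2, with the others at -0.55. The gaps in the CFTR group are under 0.1 on the log2 scale.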

How the results depend on the processing

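The number of proteasome genes past the threshold over all 11 arrays, 1 as reported, was 9 under quantile normalization, 10 under median centring, 2 with dim genes left out, and 0 without an intensity trend or with near-alike vector arrays averaged (replicates 1 and 2 with 5 and 7, or with 5 to 7, the last chosen after seeing the data); it ran from 0 to 6 when single arrays were left out. Against vector replicates 1 to 3 it was 2 under quantile normalization, 1 under median centring and 0 to 17 without single arrays, and the median became 0.12 and 0.28 under the 2 scalings. Against replicates 4 to 7 it was 9 with replicates 1 and 2 averaged and 5 to 7 averaged, and 25 to 33 without single arrays. Between the vector ranges it was 10 under median centring, 9 and 3 with near-alike arrays averaged, 20 with only those arrays in the model and 21 to 36 without single arrays, and the median was -0.16 under quantile normalization, -0.017 under median centring and -0.21 with replicates 1 and 2 and replicates 5 to 7 averaged. PRE8 turned to 0.066 under median centring and ran from -0.042 to 0.017 without single arrays. The cause of these changes was not tested, beyond the smaller number of samples where arrays were averaged or left out. PRE6 passed in 4 of 18 alternatives (limma, adjusted p 0.0013 to 0.44) and RPN4 in 4 of 18 (0.0054 to 0.44), while UBA1 passed in all 18, CUZ1 in 14 and MAG1 in 9. Among the 18, averaging the probe sets of a gene left the values of these genes unchanged, because each has a single probe set. The passes of PRE6 include that setting. The median of the 41 genes over all 11 arrays stayed between 0.15 and 0.22 without single arrays. No paired analysis was possible because the CFTR labels carry no replicate numbers. The planned search for promoter motifs, with its alternatives, was not run, and promoter sequences were not used here. No member lay below background on any array, though the lowest arrays of HSM3 (-1.08) and ECM29 (-1.05) came close to it. Of the pathway genes outside the members, UBR2 lay below background on every array, and MAG1, PDR3, FUB1 and MUB1 on some.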

Other observations

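Other pathway genes that did not pass over all 11 arrays also split by vector code range. RAD23, a shuttle that brings ubiquitinated proteins to the proteasome, was at 0.91, 0.94, 1.001 and 0.86 with CFTR, at 1.34, 1.40 and 0.74 in vector replicates 1 to 3, and at 0.18, 0.32, 0.48 and 0.32 in replicates 4 to 7. FUB1 was at -0.76, -0.64, -0.76 and -0.51 with CFTR, at -0.74, -0.69 and -0.91 in vector replicates 1 to 3, and at -1.46, -1.44, -1.40 and -1.40 in replicates 4 to 7. Both were higher with CFTR than in replicates 4 to 7, by 0.60 (limma, adjusted p = 0.0079) and 0.76 (adjusted p = 0.00020), and did not pass against replicates 1 to 3 (adjusted p = 0.21 and 0.32). FUB1 lay below the background level of -1.17 in replicates 4 to 7, so the size of its difference is uncertain. IRC25, a chaperone of the core, was higher by 0.49 than in replicates 4 to 7 (adjusted p = 0.0026), whereas POC4, its partner, differed by -0.11 (adjusted p = 0.28). These genes were chosen after their values were seen.

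YAP1, a transcription factor of the oxidative stress response, was at 0.59 and 0.68 in vector replicates 1 and 2 and between -0.64 and -0.25 on the other 9 arrays, the same split of arrays as in PDR3, HSM3 and BLM10. UBI4, which encodes polyubiquitin and whose probe set may share signal with other ubiquitin genes, was highest in vector replicate 4, at 2.72, and differed by 0.19 between CFTR and vector (adjusted p = 0.34).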
